A study of Mus musculus with 6 samples.

Results

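The axon guidance ligands and receptors were examined in cultured enteric glial cells (EGCs), which surround the neurons of the gut, at rest and after exposure to lipopolysaccharide (LPS), a bacterial cell wall component. The genes were chosen by symbol alone: semaphorins of classes 3 to 7, plexins, neuropilins, Eph receptors, ephrins, Slits, Robos, netrins, and the netrin receptors Unc5 and Dcc. They numbered 68 of the 46603 gene identifiers in the count tables, 34 ligands and 34 receptors, and all are protein-coding. The EGCs had grown out of neurospheres prepared from whole intestine of C57BL/6J embryos (E14.5). Neurospheres were kept for 1 week with EGF at 40 ng/ml and FGF at 20 ng/ml. They were then dissociated and plated in medium with 10% serum until confluent. Poly(A) RNA was sequenced from 3 control cultures, which received no treatment, and from 3 cultures given 100 ng/ml LPS for 12 h. No source states whether cultures of a group came from separate embryos, so p-values measure the spread between these samples only.

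Axon guidance genes form ligand and receptor systems that attract or repel growing axons and migrating cells. Semaphorins act through plexins, and the secreted class 3 semaphorins usually need a neuropilin as co-receptor. Ephrins are membrane-bound ligands of Eph receptor tyrosine kinases, and signals can pass into both of the touching cells. Slits bind Robo receptors, and netrins bind Dcc and Unc5 receptors. In the embryonic gut, cues of these families steer neural crest cells, from which enteric neurons and glia derive, and many of them also act on blood vessels and leukocytes.

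The libraries held between 18775316 and 23664312 counts, and the 68 genes took between 0.346% and 0.416% of them. Glial markers were present, with Sox10 at 88.0 ± 13.5 CPM (counts per 1e6, after scaling of the libraries) in control against 77.0 ± 1.16 CPM with LPS (SD, n = 3 each). Of 11 tested glial markers, S100b and Cdh19 fell (log2 fold changes -1.91 and -0.66), Fabp7 rose (1.29) and 8 were not called, and their part in the results was not tested. Cells other than glia contributed RNA. All 12 macrophage, all 10 mesenchymal, 7 of 8 smooth muscle and 10 of 11 neuron markers passed the filter on low counts. None of 6 epithelial markers did, Cdx2 having no count at all. Libraries numbered 3 stood apart. The summed level of the 12 macrophage markers was 3987, 5146 and 12144 CPM in control replicates 1, 2 and 3 and 3982, 5165 and 19658 CPM in the LPS libraries in the same order. Neuron markers summed to 707.0, 697.4 and 311.9 CPM in control and to 585.3, 657.4 and 342.5 CPM in LPS. Smooth muscle markers summed to between 2271 and 2510 CPM in control and between 637 and 921 CPM in LPS, and 6 of the 7 tested fell. Mesothelial markers summed to between 63.2 and 95.4 CPM in control and between 34.6 and 56.4 CPM in LPS, with 1 of 5 lower and 4 lower with the replicate block. The 3 markers of interstitial cells summed to 202.5, 203.5 and 68.2 CPM in control and to 87.0, 78.4 and 50.5 CPM in LPS, and 1 of them fell. The 13 cell cycle genes had a median log2 fold change of -0.79, with none called by edgeR, 8 at an unadjusted p under 0.05, 3 called by DESeq2, 1 by limma-voom and 2 with the block. The part of these lists in the results was not tested. In bulk RNA, fewer cells of a type and less RNA per cell cannot be told apart. The response to LPS was plain in Tnf, which was at 4.49 ± 2.49 CPM in control against 175.9 ± 52.7 CPM with LPS (SD, n = 3 each).

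At rest, receptors of the semaphorin system had the highest levels. Per kilobase of exon, Plxnb2, a receptor of class 4 semaphorins, was highest at 72.3 ± 5.82 CPM per kb (SD, n = 3). Plxna1, a plexin partner of neuropilins, followed at 44.9 ± 4.25 CPM per kb. The co-receptors Nrp2 and Nrp1 were at 37.1 ± 3.32 and 33.6 ± 11.2 CPM per kb, on either side of the secreted ligand Slit3 at 34.0 ± 10.6 CPM per kb. The netrin receptor Unc5b (21.2 ± 15.4), Plxnd1 (19.6 ± 3.08), Sema4c (13.8 ± 0.831), Sema3e (13.7 ± 5.01) and the ephrin-B2 receptor Ephb4 (12.8 ± 0.806 CPM per kb) completed the 10 highest. The controls of Plxnb2 lay clear of those of Plxna1, and those of Plxnd1 clear of those of Sema4c, while every other pair of neighbours in this order overlapped. Without control replicate 3, Unc5b averaged 12.4 CPM per kb and took rank 10 in place of rank 6. Plxnb2 lay at percentile 96.4 and Ephb4 at percentile 75.3 of all tested genes on this scale.

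**Figure D1:**
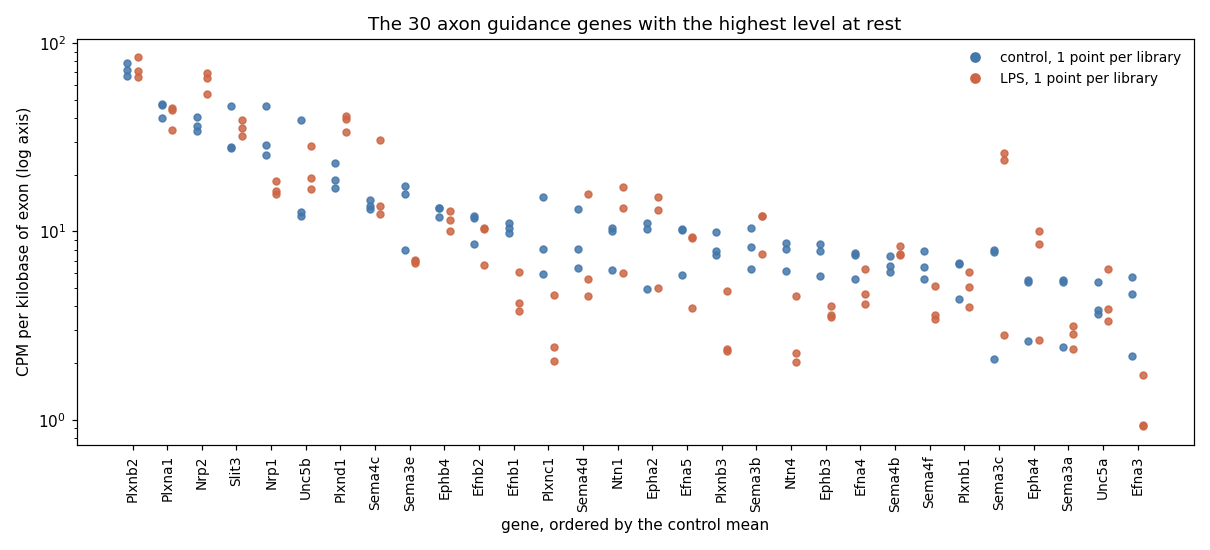
Level in CPM per kilobase of exon (log axis) of the 30 axon guidance genes with the highest control mean, with 1 point per library, blue for control and orange for LPS. Plxnb2 had the highest mean in both groups, the 3 LPS points of Nrp2 and Plxnd1 sit above their controls, and those of Nrp1 below.

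Of the 68 genes, 60 passed the count filter. The other 8 (Dcc, Epha6, Ephb1, Ntn5, Robo3, Robo4, Sema5b and Unc5d) never exceeded 0.636 CPM in a library. Dcc, the attractive netrin receptor, had between 2 and 10 counts per library, and Ntn5 at most 2. These genes were not compared between groups.

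LPS and control cultures were then compared, with each gene called at an adjusted p-value under 0.05 by the edgeR quasi-likelihood test over all 15226 genes tested. Among the 60 guidance genes, 4 rose (6.67%), where 9.09% of all genes rose, and 9 fell (15%), where 6.71% of all genes fell. The genes that rose were Sema4a, Robo2, Plxnd1 and Nrp2. Those that fell were Efna3, Sema3d, Plxnb3, Ntn4, Plxna4, Efnb1, Ephb3, Nrp1 and Sema6c. The median log2 fold change was -0.25 for the 60 genes and -0.02 for all genes, and 39 of the 60 had a negative value (65%, against 52.0% of all genes). In 20 of the 60 (33.3%) every LPS library lay below every control, as in 19.4% of all genes, and in 5 (8.33%) every LPS library lay above, as in 19.3% of all genes. All 13 called genes were without overlap between the groups. The same direction in each pair of libraries with the same number follows from this and adds nothing to it. Other scaling kept their directions but moved the split, to 3 higher and 12 lower with upper-quartile factors (6.9% and 10.4% of all genes) and 3 higher and 17 lower with library size alone (6.48% and 13.5% of all genes).

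The calls varied with the libraries used, as over all genes. Of the 13, 2 were kept without control replicate 1, 1 without control replicate 2, 3 without LPS replicate 1 and 2 without LPS replicate 2, while 10 were kept without control replicate 3 and 11 without LPS replicate 3. Of all genes, 15.8% were called with all libraries, between 3.15% and 5.42% in the first 4 of these fits, and 14.2% and 21.7% in the last. Without both libraries numbered 3 all 13 were called, among 14 guidance genes higher and 25 lower, where 22.6% of all genes were called higher and 20.4% lower. A fit with the replicate number as a block, which treats equally numbered libraries as pairs, called the 13 again and 14 further genes. Of these 14, DESeq2 called 5, library size alone 5 and upper-quartile factors 2, and the fit without both libraries numbered 3 called all 14. The block gave 7 genes higher and 20 lower, where 15.4% of all genes were called higher and 14.9% lower. A gene given as not called was not called in the fit to all 6 libraries without the block, unless another fit is named. Of genes called by neither of these fits, Sema3a, Sema4d, Sema4f and Sema6a were called lower and Sema4b higher without both libraries numbered 3, as were others where so stated.

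**Figure D2:**
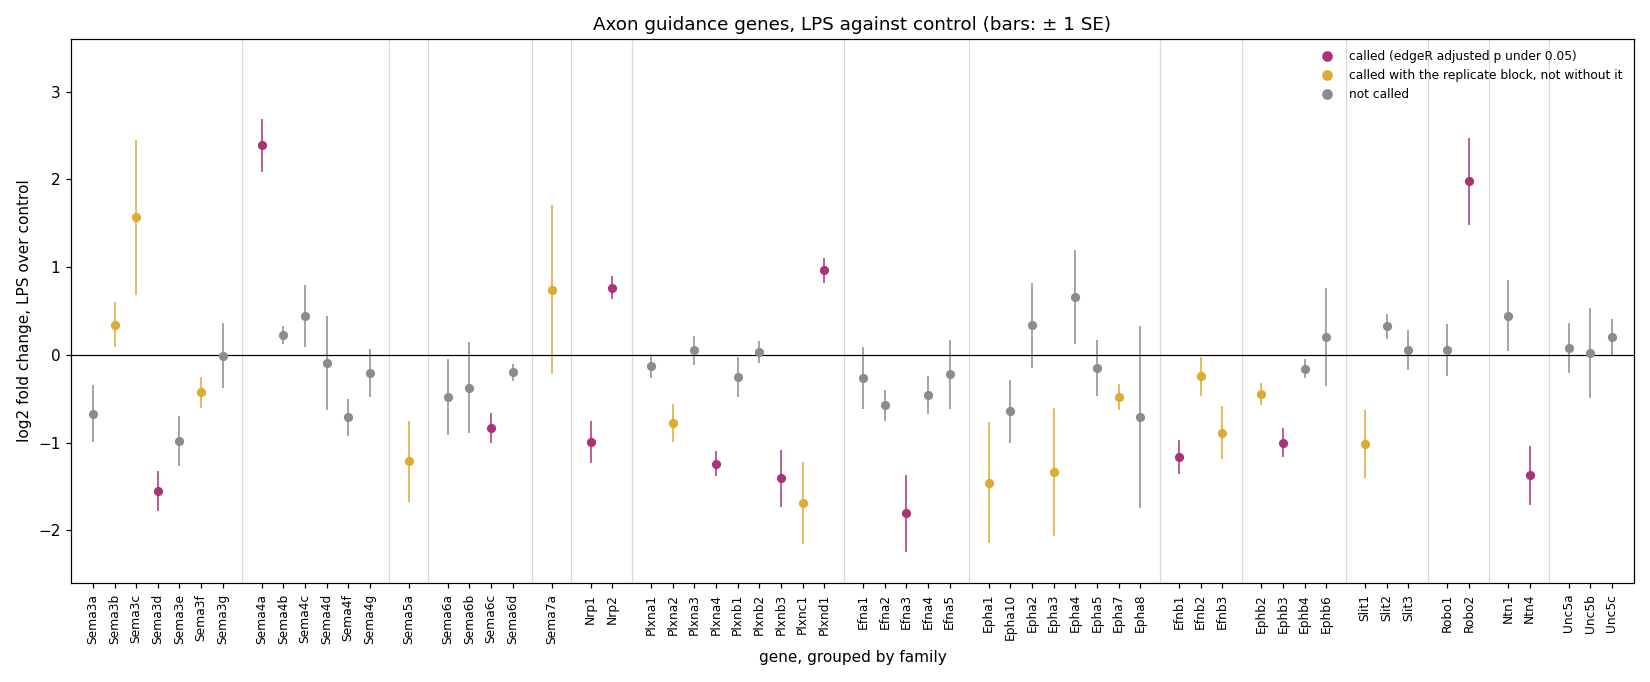
Log2 fold change of LPS over control for the 60 tested genes, grouped by family, with bars of ± 1 SE from the edgeR fit. Purple marks the 13 called genes, yellow the 14 called with the replicate block and not without it, and grey the rest. The called genes run from -1.81 for Efna3 to 2.39 for Sema4a.

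**Figure D3:**
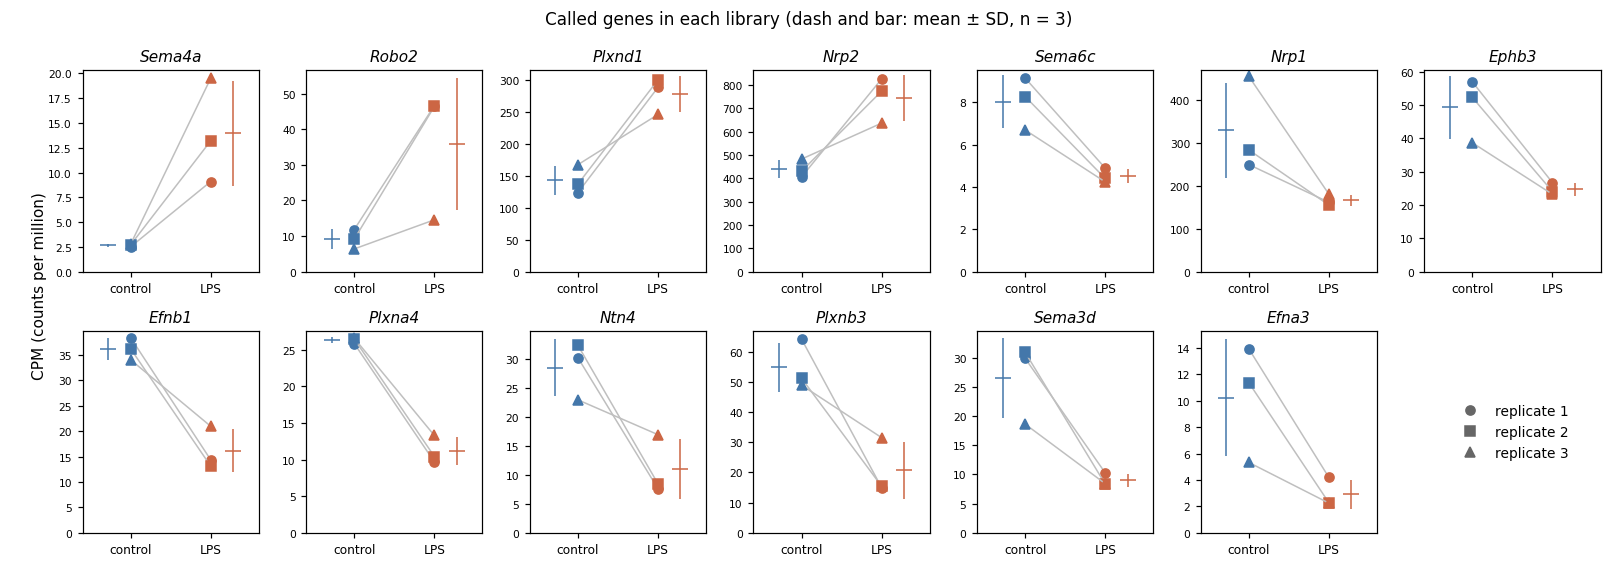
CPM of the 13 called genes in each library, with lines joining libraries of the same replicate number and dashes and bars for the mean ± SD of 3 cultures. The groups did not overlap for any of them. As a ratio of LPS to control, replicate 3 changed least of the 3 pairs in all of them except Nrp1 and Sema4a.

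Both neuropilins were called, in opposite directions. Nrp1 (chromosome 8, 128358604 to 128503363, GRCm38, plus strand, ENSMUSG00000025810), a co-receptor for class 3 semaphorins and VEGF, was at 248.8, 283.0 and 454.0 CPM in control replicates 1, 2 and 3. With LPS it was at 161.0, 154.7 and 180.2 CPM. Every LPS value was lower than every control, and control replicate 3 stood highest. The log2 fold change was -0.99 (SE 0.24, adjusted p = 0.0427). Nrp2 (chromosome 1, 62703285 to 62818695, plus strand, ENSMUSG00000025969), which binds Sema3f and VEGF-C among others, was at 405.3, 430.0 and 482.2 CPM in control and at 825.7, 773.5 and 636.3 CPM in LPS replicates 1, 2 and 3. All LPS values were higher, least so in replicate 3 (log2 fold change 0.76, SE 0.13, adjusted p = 0.0173). Per kilobase of exon, the ratio of Nrp2 to Nrp1 was 1.35, 1.26 and 0.878 in the controls and 4.24, 4.13 and 2.92 in LPS. The ratio thus averaged 1.16 ± 0.248 in control and 3.76 ± 0.733 in LPS (SD, n = 3 each). Gene counts do not separate membrane-bound from soluble neuropilin transcripts. Both calls were lost without control replicate 1 or 2 or LPS replicate 1 or 2, and that of Nrp1 also without LPS replicate 3. Over all alternatives the adjusted p ran from 0.000423 to 0.15 for Nrp1 and from 8.47e-06 to 0.0958 for Nrp2.

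Plexins, the signalling receptors of the semaphorins, numbered 9 tested genes, of which 1 rose, 2 fell and 6 were not called (9.09% and 6.71% of all genes rose and fell). Plxnd1 (chromosome 6, 115954811 to 115995005, minus strand, ENSMUSG00000030123), the receptor of Sema3e, was at 123.8, 137.1 and 167.6 CPM in control and at 288.9, 300.6 and 246.4 CPM in LPS. It was 1.95-fold higher (log2 fold change 0.96, SE 0.14, adjusted p = 0.0118). Plxna4 (chromosome 6, 32144268 to 32588192, minus strand, ENSMUSG00000029765), which responds to Sema3a with Nrp1 and to class 6 semaphorins, was even within each group. Its controls were at 25.8, 26.5 and 26.6 CPM and its LPS libraries at 9.69, 10.4 and 13.3 CPM. The log2 fold change was -1.24 (SE 0.14, adjusted p = 0.00498), and Plxna4 alone kept its call whichever library was left out, with an adjusted p of at most 0.0369. Plxnb3 (chromosome X, 73757090 to 73772514, plus strand, ENSMUSG00000031385), a receptor of Sema5a, was at 64.2, 51.2 and 48.9 CPM in control and at 14.97, 15.4 and 31.5 CPM in LPS. The fall was thus larger in replicates 1 and 2 than in replicate 3 (log2 fold change -1.41, SE 0.32, adjusted p = 0.0384). The call of Plxnd1 was lost without control replicate 1 or 2 or LPS replicate 1 or 2 (adjusted p from 5.49e-07 to 0.0745 over the alternatives), and that of Plxnb3 in these fits and without control replicate 3 (7.18e-05 to 0.13).

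Among the uncalled plexins, the abundant Plxnb2 was at 557.9 ± 45.0 CPM in control against 570.5 ± 70.4 CPM with LPS (SD, n = 3 each; log2 fold change 0.03, SE 0.12), and Plxna1 at 406.2 ± 38.5 and 373.0 ± 52.7 CPM (-0.12, SE 0.14). Plxnc1 and Plxna2 were called lower with the replicate block, and also by DESeq2 and with upper-quartile factors or library size alone. Plxnc1, the receptor of Sema7a, was at 49.5, 67.6 and 127.0 CPM in control and at 17.0, 20.3 and 38.5 CPM in LPS. It was lower in each numbered pair by a similar amount, with log2 ratios of -1.54, -1.73 and -1.72, and the adjusted p was 0.00068 with the block against 0.0608 without. Within each group Plxnc1 was highest in replicate 3, as were the summed macrophage markers, whose part in this was not tested. Plxna2 was at 31.7, 39.7 and 47.6 CPM in control and at 20.3, 20.0 and 29.3 CPM in LPS (adjusted p = 0.00839 with the block, 0.0641 without).

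The class 3 semaphorins, secreted and mostly repulsive cues, did not move together. Sema3d (chromosome 5, 12383385 to 12588948, plus strand, ENSMUSG00000040254) was at 29.9, 30.9 and 18.6 CPM in control and at 10.3, 8.36 and 8.43 CPM in LPS. It fell 2.93-fold (log2 fold change -1.55, SE 0.23, adjusted p = 0.0112), a call lost without control replicate 1 or 2 or LPS replicate 2 (6.94e-08 to 0.0595 over the alternatives). On the same strand of chromosome 5 lie Sema3a (13125414 to 13602565), Sema3e (14025276 to 14256689) and Sema3c (17574281 to 17730268), and the 4 neighbours differed. Sema3e, the ligand of Plxnd1, was at 161.0, 146.8 and 74.3 CPM in control and at 64.9, 63.0 and 65.3 CPM in LPS. Its groups did not overlap, yet it was not called with or without the block (adjusted p = 0.0543 and 0.0703), and control replicate 3 lay close to the LPS values. Without both libraries numbered 3, Sema3e was called (log2 fold change -1.24, adjusted p = 3.03e-05). Sema3a was at 61.8 ± 24.3 and 38.8 ± 5.40 CPM in control and LPS (SD, n = 3 each), with an adjusted p of 0.217.

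Sema3c, a ligand of both neuropilins and of Plxnd1, differed between replicates. It was at 56.8, 55.3 and 14.96 CPM in control and at 185.7, 170.5 and 20.0 CPM in LPS replicates 1, 2 and 3. The difference was large in replicates 1 and 2 and small in replicate 3, where both levels were low. The log2 fold change was 1.57 (SE 0.89, adjusted p = 0.282). With the block it was 1.30 (adjusted p = 0.0315), and without both libraries numbered 3 it was 1.69 (adjusted p = 6.58e-06). Sema3f, a ligand of Nrp2, was called lower with the block (12.2 ± 1.53 against 9.09 ± 1.65 CPM, SD, n = 3 each; adjusted p = 0.0396). Its neighbour on chromosome 9, Sema3b, was called higher with the block (39.7 ± 9.71 against 50.4 ± 12.5 CPM; adjusted p = 0.0491). Sema3g was at or below 1.204 CPM in every library.

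Of the membrane-bound semaphorins, Sema4a (chromosome 3, 88435959 to 88461182, minus strand, ENSMUSG00000028064) had the largest rise of all guidance genes in the fit to all libraries. Without both libraries numbered 3, Robo2 rose more (log2 fold change 2.17 against 2.12 for Sema4a). Sema4a, known for its role in T cell activation, was at 2.50, 2.70 and 2.77 CPM in control and at 9.09, 13.2 and 19.5 CPM in LPS. It was 5.24-fold higher (log2 fold change 2.39, SE 0.30, adjusted p = 0.00729), and the call was lost only without control replicate 2 (adjusted p = 0.0519, the highest over the alternatives, the lowest being 9.32e-11). Within LPS, Sema4a was highest in replicate 3, as were the summed macrophage markers. Of the 12 markers, Adgre1 rose and the other 11 were not called. With the block 4 markers were called higher and 4 lower, where 15.4% and 14.9% of all genes were. The part of these markers in the level of Sema4a was not tested. The other class 4 genes were not called. Sema4d, a ligand of Plxnb1, followed the replicate number, at 49.1, 62.2 and 101.1 CPM in control and 34.9, 43.1 and 120.7 CPM in LPS, in the same order as the macrophage markers within each group. Sema4c was at 139.6 CPM in LPS replicate 3 and between 56.6 and 67.7 CPM in the other 5 libraries.

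Sema6c (chromosome 3, 95160457 to 95174024, plus strand, ENSMUSG00000038777), a transmembrane semaphorin, was low but steady, at 9.15, 8.28 and 6.70 CPM in control and at 4.89, 4.40 and 4.24 CPM in LPS. It fell by 0.83 on the log2 scale (SE 0.17, adjusted p = 0.0287), and the call was lost without control replicate 1 or 2 or LPS replicate 1 or 2 (0.000816 to 0.124 over the alternatives). The other class 6 genes had log2 fold changes from -0.48 to -0.20 and were not called. Sema5a, the ligand of Plxnb3, was called lower with the block, at 68.3, 66.8 and 25.7 CPM in control and 30.0, 25.7 and 13.5 CPM in LPS (adjusted p = 0.00401 with the block, 0.134 without). Sema7a, a lipid-anchored semaphorin, was at 5.30, 4.16 and 25.7 CPM in control and at 8.05, 8.80 and 41.9 CPM in LPS. It was called higher with the block (log2 fold change 0.79, adjusted p = 0.0157), and both groups were highest in replicate 3. Without LPS replicate 3 and without the block its log2 fold change was -0.48, and over all fits with 1 library left out it ran to 2.06.

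**Figure D4:**
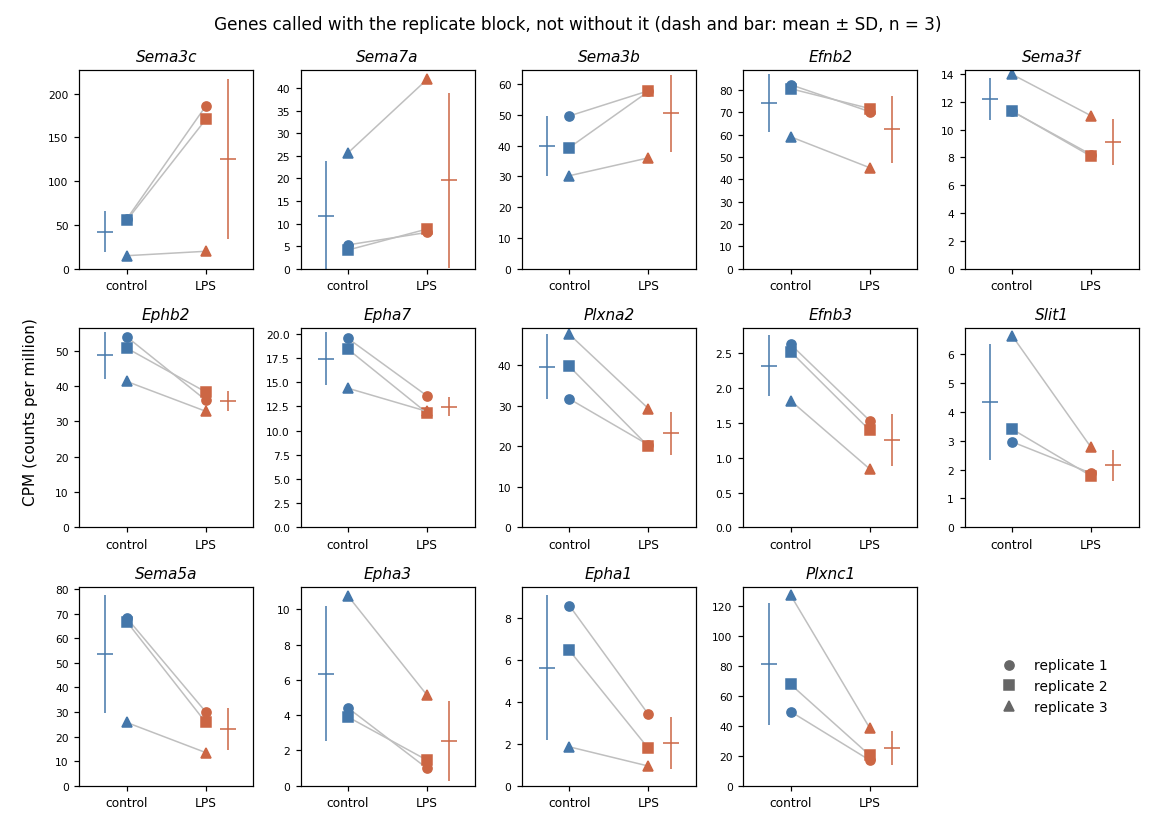
CPM in each library of the 14 genes called with the replicate block and not without it, with lines joining libraries of the same number and dashes and bars for the mean ± SD of 3 cultures. Each line runs the same way within a gene, while replicate 3 lies apart from replicates 1 and 2 in genes such as Sema3c and Sema7a.

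Of 20 tested ephrins and Eph receptors, 3 fell and none rose, and at an unadjusted p under 0.05 none was higher either. Over all genes 6.71% fell and 9.09% rose. DESeq2 called 6 of the 20 lower and none higher (11% and 13.7% of all genes), and limma-voom 2 lower and none higher (6.05% and 8.21% of all genes). The block called 9 lower and none higher (14.9% and 15.4% of all genes), with 2 higher at an unadjusted p under 0.05. Without both libraries numbered 3, 9 were lower and 2 higher (20.4% and 22.6% of all genes), the 2 being Epha2 (log2 fold change 0.43, adjusted p = 0.0124) and Epha4. Efnb1 (chromosome X, 99136130 to 99148991, plus strand, ENSMUSG00000031217), a transmembrane ephrin, was at 38.3, 36.2 and 34.0 CPM in control and at 14.3, 13.1 and 20.9 CPM in LPS (log2 fold change -1.17, SE 0.19, adjusted p = 0.0157). Ephb3 (chromosome 16, 21204755 to 21223305, plus strand, ENSMUSG00000005958), a receptor of ephrin-B ligands, was at 56.9, 52.2 and 38.6 CPM in control and at 26.69, 24.02 and 23.19 CPM in LPS (log2 fold change -0.9997, SE 0.16, adjusted p = 0.0147). The LPS libraries of Ephb3 lay close together and all controls lay above them. Efna3 (chromosome 3, 89313899 to 89322965, minus strand, ENSMUSG00000028039), a lipid-anchored ephrin, was at 13.9, 11.4 and 5.33 CPM in control and at 4.20, 2.28 and 2.25 CPM in LPS. In the fit to all libraries this was the largest fall of all guidance genes, at 3.50-fold (log2 fold change -1.81, SE 0.44, adjusted p = 0.0453). Without LPS replicate 3, Epha3 fell further (log2 fold change -2.39 against -1.65 for Efna3). Efna3 shares 344 exon bases with an antisense gene, and the strand setting of the counting was not given. Of the 68 genes, 14 share exon bases with a gene on the other strand, among them the called Plxna4 (110 bases) and the abundant Plxna1 (970 bases). A further 3, Sema4a, Nrp1 and Plxnc1, do so with a gene on their own strand. The calls of Efnb1 and Ephb3 were lost without control replicate 1 or 2 or LPS replicate 1 or 2 (4.18e-06 to 0.0764 and 5.05e-06 to 0.078 over the alternatives), and that of Efna3 in these fits, without LPS replicate 3 and with limma-voom (0.00118 to 0.157).

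The remaining ephrins and Eph receptors were not called in the fit without the block, and some were called with it. Efnb2, the partner of Ephb4, was at 73.9 ± 13.0 CPM in control against 62.3 ± 14.9 CPM with LPS (SD, n = 3 each; adjusted p = 0.0484 with the block, 0.497 without). Efnb3 was at 2.323 ± 0.440 and 1.254 ± 0.367 CPM (0.0334 and 0.107). With the block all 3 ephrin-B genes were called lower, as were 14.9% of all genes, and without it 1 of the 3. Ephb2 was at 48.7 ± 6.58 and 35.7 ± 2.75 CPM (0.0185 and 0.0649), while Ephb4 was at 59.3 ± 3.74 and 53.2 ± 6.58 CPM and was not called. Among EphA receptors, Epha1, Epha3 and Epha7 were called lower with the block (adjusted p = 0.0158, 0.0189 and 0.0377). Epha4, which binds ephrins of both classes, was at 44.4, 43.5 and 21.04 CPM in control and at 80.9, 69.2 and 21.5 CPM in LPS, so that it was higher in replicates 1 and 2 and nearly level in replicate 3. It was not called with or without the block (adjusted p = 0.0819 and 0.453), but was without both libraries numbered 3 (log2 fold change 0.80, adjusted p = 0.000608). Efna1 and Efna4, the neighbours of Efna3 on chromosome 3, were not called, with log2 fold changes of -0.27 and -0.46.

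In the Slit and Robo system, Robo2 rose while its close relative Robo1 was not called. Robo2 (chromosome 16, 73891839 to 74411825, minus strand, ENSMUSG00000052516), a Slit receptor, was at 11.8, 9.12 and 6.36 CPM in control and at 46.6, 46.4 and 14.6 CPM in LPS. The groups were apart, but LPS replicate 3 lay nearest to the controls. Robo2 was 3.94-fold higher (log2 fold change 1.98, SE 0.49, adjusted p = 0.0477). This call was lost without any library other than LPS replicate 3, with upper-quartile factors, with library size alone and with limma-voom (3.57e-05 to 0.163 over the alternatives). Robo1, on the same chromosome, was at 42.7 ± 8.74 and 44.3 ± 15.2 CPM in control and LPS (SD, n = 3 each; log2 fold change 0.05, SE 0.30). Of the ligands, Slit2 was at 84.0 ± 6.18 and 105.2 ± 17.6 CPM and Slit3 at 206.6 ± 64.5 and 214.8 ± 20.4 CPM, neither called with all libraries. Without both libraries numbered 3, Slit2 (log2 fold change 0.54, adjusted p = 0.000653) and Slit3 (0.29, 0.00963) were called higher. Slit1, the least abundant, was called lower with the block (4.34 ± 2.01 against 2.15 ± 0.547 CPM; adjusted p = 0.0279).

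Of the netrins, Ntn4 fell. Ntn4 (chromosome 10, 93640681 to 93747207, plus strand, ENSMUSG00000020019), a netrin that binds laminin in basement membranes, was at 30.3, 32.4 and 23.0 CPM in control and at 7.61, 8.47 and 17.0 CPM in LPS (log2 fold change -1.37, SE 0.34, adjusted p = 0.0468). Replicate 3 changed least, and the call was lost without any library other than LPS replicate 3 (2.19e-05 to 0.158 over the alternatives). Ntn1, the classical axon attractant, was at 65.4, 62.9 and 39.0 CPM in control and at 107.5, 83.1 and 37.5 CPM in LPS and was not called (0.45, SE 0.41, adjusted p = 0.503). Its LPS value was the higher in replicates 1 and 2 only, and without both libraries numbered 3 Ntn1 was called higher (0.60, adjusted p = 0.00774). None of the 3 tested Unc5 receptors was called by edgeR, DESeq2 or limma-voom in all 6 libraries, and none had an unadjusted p under 0.05. Of all genes, these tests called 15.8%, 24.6% and 14.3%. Unc5b was at 79.1, 75.6 and 243.8 CPM in control and at 105.7, 120.9 and 178.0 CPM in LPS, so control replicate 3 alone lay above all LPS libraries. Without both libraries numbered 3, edgeR called Unc5b higher (log2 fold change 0.57, adjusted p = 0.00175).

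To show the sequence before the start sites of the called genes, the 250 bases upstream of each RefSeq start (GRCm38.p6) were searched on both strands for words of factors activated by LPS. Starts were listed for 12 of the 13 called genes, 19 starts in all. The κB word, GGG and TTTCC with any 2 bases between them, was found before 1 of the 19 starts and before 1.41% of 32851 starts of all genes. The STAT word TTCNNNGAA was found before 1 of the 19 and 7.02% of all. The AP-1 word TGANTCA (6.75% of all) and the interferon word, GAAA and GAAA with any 2 bases between them (2.98% of all), were before none of the 19. The words as spelled cannot share all their bases. Both matches belonged to genes that fell, and their surroundings are given with the matched word in capitals, 5′ to 3′ on the strand of the gene. A match is a string of letters, not a binding site.
Sema6c, κB word, chr3:95160221-95160280, plus strand: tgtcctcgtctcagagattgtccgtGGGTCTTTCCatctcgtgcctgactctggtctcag
Efna3, STAT word, chr3:89323123-89323182, minus strand: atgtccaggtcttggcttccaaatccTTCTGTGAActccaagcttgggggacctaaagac
The word began 174 bases before the start of Sema6c and 217 bases before that of Efna3.

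Other genes of guidance signalling were followed from a list of co-receptors, further cues, receptors shared with other ligands and intracellular effectors. Of 97 tested genes, 8 rose and 13 fell (9.09% and 6.71% of all genes), with a median log2 fold change of -0.08. With the block 16 rose and 20 fell (15.4% and 14.9% of all genes), and without control replicate 2, 2 rose and 2 fell, where 2.44% and 0.72% of all genes did. Among called genes, the 4 largest rises were those of Rnd1, Vegfc, Ntng2 and Draxin. Rnd1, a small GTPase that binds plexins, went from 7.09 ± 1.68 to 45.0 ± 28.3 CPM (both SD over 3 cultures, log2 fold change 2.66, adjusted p = 0.0411). Vegfc, a ligand of Nrp2, went from 13.2 ± 0.992 to 69.0 ± 28.8 CPM (2.39, 0.0117). Ntng2, a netrin-G, went from 5.71 ± 0.933 to 25.6 ± 4.88 CPM (2.16, 0.00249). Draxin, a netrin antagonist, went from 0.791 ± 0.216 to 2.70 ± 0.691 CPM (1.76, 0.0204). Rnd1 was at 12.4 CPM in LPS replicate 3 and at 58.8 and 63.7 CPM in LPS replicates 1 and 2. The 4 largest falls among called genes were those of Ablim1, Dpysl4, Srgap1 and Nrcam. Ablim1 is an actin-binding protein (-1.55, adjusted p = 0.0409), and Dpysl4 is of the collapsin response mediator family (-1.27, 0.0388). Srgap1, a GTPase-activating protein downstream of Robo, went from 42.3 ± 3.59 to 22.9 ± 0.704 CPM (-0.89, 0.0036). Nrcam, an adhesion molecule, went from 115.9 ± 11.1 to 72.3 ± 2.21 CPM (-0.68, 0.00814). Chosen after their values were seen, Neo1, a receptor of netrins and repulsive guidance molecules, went from 183.0 ± 9.49 to 120.3 ± 6.13 CPM (-0.61, adjusted p = 0.00758), and Vegfa, a ligand of both neuropilins, from 138.5 ± 21.9 to 319.5 ± 34.8 CPM (1.21, 0.00637).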

How the data were processed

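RNA of 3 control and 3 LPS cultures had been sequenced as stranded poly(A) libraries. The values were raw counts per gene, which the authors deposited per library. Per the labels and series text, reads were trimmed (cutadapt 1.15), quality filtered, cleared of contaminants and aligned to GRCm38 with STAR 2.5.2b. featureCounts 1.5.3 was listed, and its strand and multi-mapping settings are not given in the sources used here.

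Low genes were removed with filterByExpr of edgeR 4.0.16 (minimum count 10, minimum total 15), leaving 15226. CPM use TMM factors between 0.917 and 1.08. Groups were compared with the two-sided edgeR quasi-likelihood F-test, with Benjamini-Hochberg adjustment over all genes, in R 4.3.3. SE is the absolute log2 fold change over the square root of F. The test was also run on simulated counts, drawn with the same dispersion for all genes and no replicate effect. That run therefore does not cover the spread between replicates seen here. A gene at 3 counts lies between 0.124 and 0.167 CPM, for counting error only. Coordinates and exon lengths are from GENCODE M21 (GRCm38), which held all 68 genes.

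Deviations from group means correlated between equally numbered libraries (r = 0.513, 0.334 and 0.613), and the block was used on this ground alone. LPS replicate 2 correlated more with control replicate 1 (0.419) than with control replicate 2 (0.334). For LPS replicate 1 and control replicate 2, r was 0.323. These values do not settle how libraries 1 and 2 pair, so pairing by number is an assumption of the block. Alternatives were other scaling, filters, DESeq2 1.42.0, limma-voom (limma 3.58.1), the block, each library left out, and both libraries numbered 3 left out. Genes were named by rule: all members called, with or without the block, the 10 highest at rest, and 4 list genes in each direction. Other members were described as examples after their values were seen. The members and lists were chosen with earlier results of these data known.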

Additional observations from a re-analysis of the deposited data

How the results depend on the processing

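With the replicate block 7 were higher and 20 lower, where 15.4% and 14.9% of all genes were called. Without both libraries numbered 3, 14 were higher and 25 lower, where 22.6% and 20.4% of all genes were called. DESeq2 gave 17 lower genes (and 1673 of all genes) and library size alone also 17 (13.5%), against 9 with TMM factors (6.71%, 1022 genes); that scaling moved the median of all genes from -0.02 to -0.18. Leaving out 1 library gave from 0 to 5 higher and from 1 to 12 lower, while all genes ran from 2.44% to 12.6% higher and from 0.72% to 9.13% lower. The edgeR count of 0 came without control replicate 2, where 4 guidance genes were higher at an unadjusted p under 0.05. List genes numbered 16 higher and 20 lower of 97 with the block, and 25 and 31 of 98 without both libraries numbered 3. With 1 library left out they ran from 2 to 14 higher and from 2 to 16 lower. The shares of all genes in these fits are those given above. Sema7a, not called, went from 0.74 to -0.48 without LPS replicate 3, with values from -0.48 to 2.06 over these fits. None of the 13 called genes changed direction under any alternative, and DESeq2, RLE factors, either other filter and the block each kept all 13 calls. The block removed no call. Of the 10 highest genes at rest, 8 were among the 10 highest without length and all 10 without any control library. The cause of these shifts was not tested.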

Other observations

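Guidance genes differed between libraries of one group as well as between groups. In 29 of the 60 tested guidance genes (48.3%) replicate 3 was the lowest library of both groups, as in 29.0% of all tested genes, and in 19 (31.7%) it was the highest of both, as in 29.4% of all genes. Among those lowest in replicate 3 was Epha2, a receptor of ephrin-A ligands, at 52.0, 47.9 and 23.1 CPM in control and 71.6, 60.5 and 23.4 CPM in LPS. Ephb6, a receptor without kinase activity, was at 19.8, 17.0 and 8.27 CPM in control and 25.01, 20.5 and 6.28 CPM in LPS. Epha8 was at 4.32, 3.23 and 0.289 CPM in control and at 1.38, 3.07 and 0.366 CPM in LPS. Sema6b, highest in replicate 3, was at 4.20, 5.75 and 14.4 CPM in control and 4.40, 5.80 and 8.64 CPM in LPS. None of these 4 genes was called between the groups in all 6 libraries, and Epha2 was called higher without both libraries numbered 3 (log2 fold change 0.43, edgeR adjusted p = 0.0124). Summed markers of neurons were lower in replicate 3 of both groups, at 707.0, 697.4 and 311.9 CPM in control and 585.3, 657.4 and 342.5 CPM in LPS. Their part in these differences was not tested.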
